A study of Mus musculus with 9 samples.

Results

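Messenger RNA was counted in C2C12 cells in which the immunophilin gene Fkbp4 had been knocked down and in control C2C12 cells, each collected at days 0, 3 and 5 of differentiation. C2C12 cells are an established line of mouse myoblasts that stop dividing and fuse into myotubes once growth serum is withdrawn. The comparison holds 6 of the 9 libraries of the series, 3 of the Fkbp4 knockdown and 3 of the control (titled Neg), paired by day, and the other 3 libraries are a knockdown of the related gene Fkbp5. Per the labels, cells grew in 10% fetal bovine serum and were switched at day 0 to medium with 1% insulin-transferrin-selenium, and polyA RNA was taken for the libraries. All 3 genotypes come from this 1 cell line, with 1 library per genotype and day and no replicate cultures, so the 3 days stand in for replicates. Neither the means of knockdown nor the treatment of the control cells is named in the labels. Of 12498 genes tested over all 9 libraries, 10864 had a mean of at least 5 CPM (counts scaled to library size) over the 6 libraries and are described here.

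FK506-binding proteins are peptidyl-prolyl isomerases, enzymes that turn the bond before a proline residue. Fkbp4 and Fkbp5 encode the large members of the family that also carry a tetratricopeptide domain, through which they bind the chaperone Hsp90 in complexes with steroid hormone receptors. Fkbp4 is known to link these complexes to the motor protein dynein and to favour the activity of the glucocorticoid and progesterone receptors, where Fkbp5 restrains them. Lists of steroid receptors, their targets, Hsp90 partners and dynein subunits were therefore read beside lists of muscle, cell cycle, matrix and metabolic genes.

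The target was lower on every day. Fkbp4 was at 59.9, 26.9 and 23.9 normalised CPM at days 0, 3 and 5 in the knockdown, against 239.6, 142 and 137 in the control. The highest knockdown library lay below the lowest control library, so the groups did not overlap. Same-day log2 ratios were -1.99 (95% interval -2.19 to -1.81) at day 0, -2.38 (95% interval -2.67 to -2.15) at day 3 and -2.50 (95% interval -2.82 to -2.23) at day 5, where intervals are exact and cover counting error only. In the fit over all days Fkbp4 fell 4.86-fold (log2 -2.28 ± 0.12 SE, adjusted p = 1.9e-05, edgeR quasi-likelihood test with Benjamini-Hochberg adjustment, as for every adjusted p below). Fkbp4 (ENSMUSG00000030357) lies on the minus strand of mouse chromosome 6 at chr6:128429735-128438677 (GRCm38). It remained called without each of the 9 libraries in turn, at log2 -2.43 to -2.18. The related Fkbp5 was at 24.4, 7.75 and 16 CPM in the knockdown and 20, 7.31 and 14.7 in the control (log2 0.17 ± 0.19, adjusted p = 0.701) and did not pass.

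Total counts ran from 4133137 to 5568486 over the 6 libraries, and a gene with 0 reads could have reached 3 counts, or 0.539 to 0.726 CPM. Of 12498 genes tested, 135 were called (1.08%), 32 higher (0.256%) and 103 lower (0.824%) in the Fkbp4 knockdown. Among genes at a mean of 5 CPM or more, 24.1% were higher and 22.1% were lower in all 3 same-day pairs, and the median log2 difference was 0.02. Of the 133 called genes at this level 131 had 1 sign on all 3 days, 31 higher and 100 lower, with Postn and Cilp as the exceptions. The call rests on the same libraries and on the spread between days, so these shared signs are not separate evidence. Only 37 of the 135 called genes differed 2-fold or more, 7 higher and 30 lower. At an unadjusted p under 0.05 (edgeR) there were 2068 of the 12498 genes, and 1924 of the 10864 at a mean of 5 CPM or more. The count of called genes leans on single libraries. It was 8 without the Fkbp4 knockdown library of day 3, 14 without that of day 5, 4 without the control of day 3, 20 without the control of day 5 and 40 without the control of day 0. It was 116 without the day 0 knockdown library, and 224 and 259 without the Fkbp5 knockdown libraries of days 0 and 3, which belong to neither group compared but share the day terms, the filter and the estimate of spread. Of 85 called genes examined singly, 5 remained called without the day 3 knockdown library, 7 without that of day 5, 2, 12 and 21 without the controls of days 3, 5 and 0, and 53 without the day 0 knockdown library. In 23 alternative fits none of the 85 changed sign, and apart from Fkbp4 each was missed in at least 1 fit that left out a library.

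**Figure D1:**
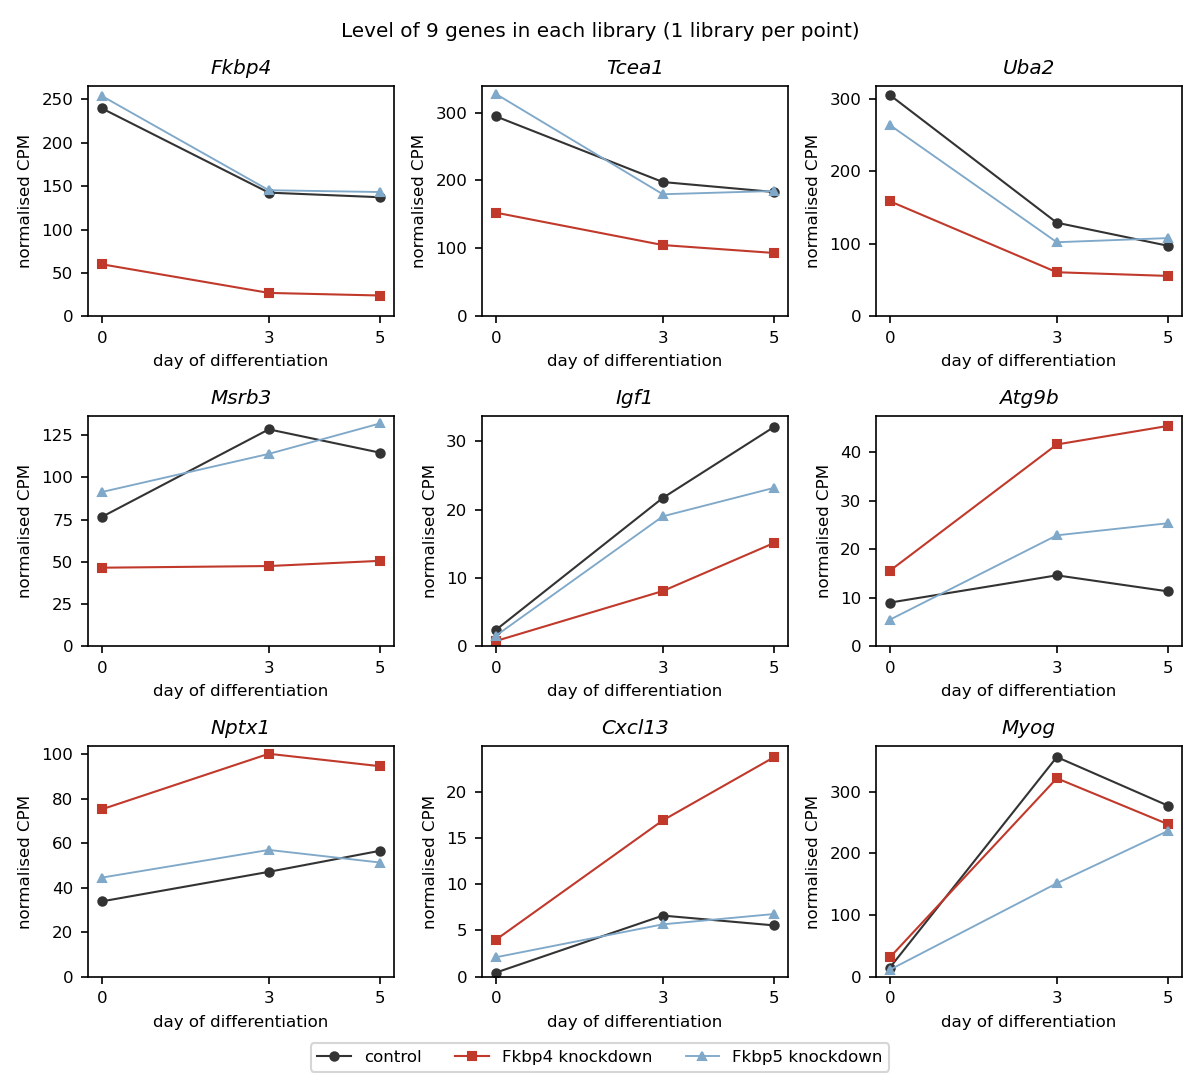
Normalised CPM (y axis, from 0) of 9 genes by day of differentiation (x axis) in the control (circles), the Fkbp4 knockdown (squares) and the Fkbp5 knockdown (triangles), 1 library per point with no error bars. Fkbp4, Tcea1, Uba2, Msrb3 and Igf1 are lower and Atg9b, Nptx1 and Cxcl13 higher in the Fkbp4 knockdown than in the control on all 3 days, while Myog crosses over.

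Many of the genes that fell held the same short sequence in their 3′ untranslated regions (UTRs), the stretch of a message after its stop codon. Among 16334 words of 7 bases, each held by at least 20 of 10212 genes with an annotated 3′ UTR, the word GCTATGC ranked first for lower same-day ratios of its holders at day 0, where it was picked. It also ranked first at day 3 and at day 5, whose libraries did not enter that ranking. The scan was chosen with earlier results of these data known, and the 3 days share 1 knockdown without replicate cultures. Days 3 and 5 are therefore not an independent check of the word. Of the 97 called lower genes with a UTR 34 held the word (35.1%, with the day 0 libraries that picked the word in the fit), against 571 of 10212 genes in all (5.59%) and 3 of 29 called higher genes (10.3%). Windows of 24 bases around the word, in GRCm38 coordinates and with the word in capitals, are shown for the coding sequence of Fkbp4 and for lower genes described next. The coordinates given for the Fkbp4 windows lie 3 bases too far toward the 5′ end of the message for the sequences printed.
Fkbp4 (coding sequence, chr6:128434776-128434799, minus strand): ggggtgaagGCTATGCcaggccca
Fkbp4 (coding sequence, chr6:128433783-128434317, minus strand): tcaaacctaGCTATGCttttggca
Slc36a4 (3′ UTR, chr9:15740300-15740323, plus strand): ctttattttGCTATGCattcataa
Ndufa1 (3′ UTR, chrX:37187642-37187665, minus strand): tgttagaagGCTATGCagcatatt
Mycl (3′ UTR, chr4:123000825-123000848, plus strand): ctgacagatGCTATGCaacaggtg
Trak2 (3′ UTR, chr1:58902545-58902568, minus strand): ccaaagtgtGCTATGCatattttt
Rasa1 (3′ UTR, chr13:85215953-85215976, minus strand): gatgtgtgaGCTATGCaagcaaaa
Uba2 (3′ UTR, chr7:34140910-34140933, minus strand): gtgtcaagtGCTATGCattgaaac
Tcea1 (3′ UTR, chr1:4897200-4897223, plus strand): aatcattaaGCTATGCtctttgtg
Msl3 (3′ UTR, chrX:168654283-168654306, minus strand): gaacttacaGCTATGCattgcttg
Adam10 (3′ UTR, chr9:70779356-70779379, plus strand): aggcttatcGCTATGCagaaaatg
Ext1 (3′ UTR, chr15:53068314-53068337, minus strand): gaaatgattGCTATGCaggtttaa
Bag3 (3′ UTR, chr7:128546872-128546895, plus strand): tagatatgaGCTATGCaaggagcc
Sod3 (3′ UTR, chr5:52369641-52369664, plus strand): tcattaattGCTATGCctttttgg
By these shifted coordinates the second Fkbp4 window joins exons 5 and 6 of 10 and spans an intron, and the first lies in exon 4. In the 1377 bases of the Fkbp4 coding sequence the word starts at positions 479 and 671, counted from the start codon. Among 20895 coding sequences 8.56% held the word and 0.593% held it at least 2 times.

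Medians were lower for longer matches to the word, as the bars of ratios by UTR match show. The 238 genes whose word was followed by A had a median log2 difference of -0.18, with 23 called lower and 0 higher. The 333 genes with the word followed by another base had -0.07, with 11 lower and 3 higher. Genes with only the last 6 bases followed by A (582) were at 0.005, genes with 6 bases of the word (2044) at 0.03 and genes with none of these (7015) at 0.04. The median was not lower with more copies, at -0.111 for 39 genes with 2 or more and -0.116 for all 571 holders. Of these 39 genes 4 were called lower (10.3%), against 5.95% of all holders. By day, holders of the full word had medians of -0.07, -0.14 and -0.15 at days 0, 3 and 5, against 0.047, 0.012 and 0.007 for genes without it. Holders have longer UTRs, with a median of 2602 bases against 997. In the shortest of 3 equal classes of UTR length the medians were -0.26 (30 holders) and 0.00 (3377 others), and in the longest class -0.10 (408) and 0.05 (2995). Genes with the word in the coding sequence only (905) were at 0.06, and genes with its reverse complement in the UTR and not the word (512) at 0.04. In the Fkbp5 knockdown, read against the same controls, holders were at -0.02 and 15 of 178 called lower genes held the word (8.43%). The Fkbp5 knockdown had no part in picking the word, so the 2 knockdowns are not evenly compared here.

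As background, small RNAs lower a message when bases 2 to 8 of the RNA, the seed, pair with the 3′ UTR, most strongly where an A follows the site. The seed that would pair with the word is GCAUAGC, and 0 of 1679 mature mouse microRNAs in the RefSeq table carry it at bases 2 to 8. The word is a description found in these data, not a mapped site. Its part in the differences was not tested. With 1 knockdown of Fkbp4 in the series, effects of the loss of Fkbp4 and effects of the means of knockdown cannot be told apart.

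**Figure D2:**
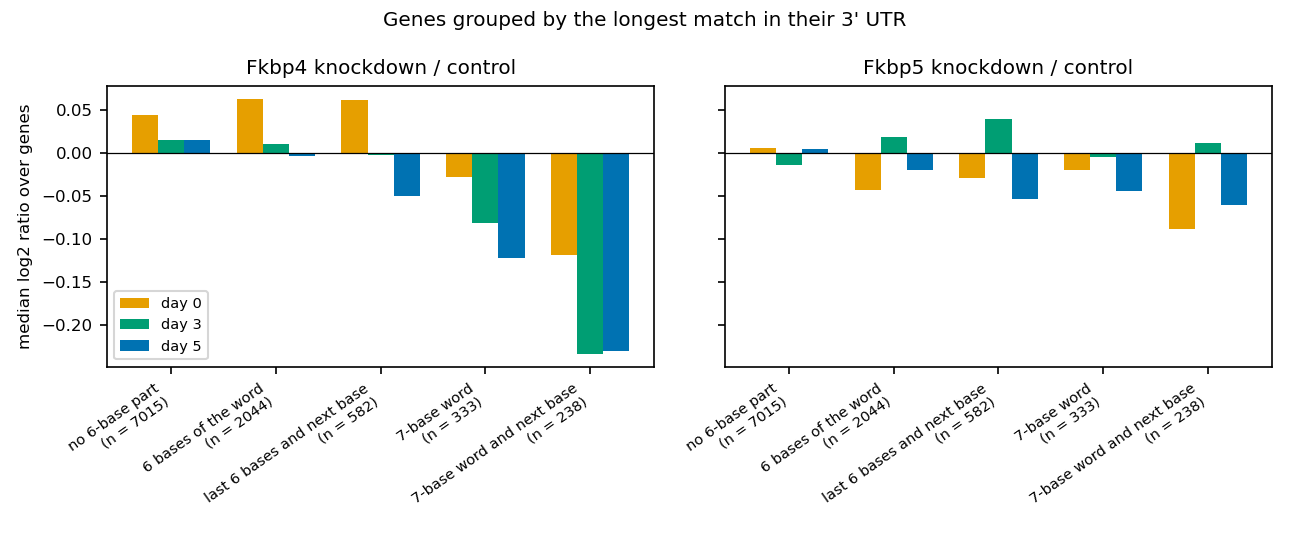
Median log2 ratio to the same-day control (y axis) over genes grouped by their longest match to the 7-base word in the 3′ UTR (x axis, with the number of genes), for the Fkbp4 knockdown (left) and the Fkbp5 knockdown (right), 1 bar per day. In the Fkbp4 knockdown genes with the word and the next base are at -0.12, -0.23 and -0.23 at days 0, 3 and 5.

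Lower genes that hold the word take part in a range of processes. Uba2 was at 159, 60.7 and 55.6 normalised CPM at days 0, 3 and 5 in the knockdown, against 305, 129 and 97.2 in the control. Uba2, a subunit of the enzyme that activates SUMO for attachment to proteins, fell on all days (log2 -0.95 ± 0.11 SE, adjusted p = 0.00741). The transcription elongation factor Tcea1 was at 153, 105 and 93.2 CPM in the knockdown and 294, 198 and 183 in the control. It was among the genes with the steadiest ratios, -0.95, -0.91 and -0.97 at days 0, 3 and 5 (log2 -0.94 ± 0.10 SE, adjusted p = 0.00741). The knockdown and control libraries of Tcea1 did not overlap, although 30% of its 31-base words occur in other genes, mostly the pseudogene Tcea1-ps1, which was also called (log2 -0.87). Slc36a4 was at 12, 12.5 and 9.03 normalised CPM at days 0, 3 and 5 in the knockdown, against 27.1, 25.5 and 26.8 in the control. This amino acid transporter had no overlap between the groups (log2 -1.24 ± 0.17 SE, adjusted p = 0.0133). Ndufa1 was at 29.6, 20.6 and 21 normalised CPM at days 0, 3 and 5 in the knockdown, against 48, 62 and 50.9 in the control. Ndufa1, a small subunit of respiratory complex I, also had no overlap (log2 -1.19 ± 0.16 SE, adjusted p = 0.0125).

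Several regulators were in this set. Mycl, a transcription factor of the MYC family that peaks at day 3 in the control, was at 5, 21.8 and 12 CPM in the knockdown and 7.92, 51.9 and 25.6 in the control (log2 -1.08 ± 0.18 SE, adjusted p = 0.0239). Trak2, an adaptor for mitochondrial transport along microtubules, was at 33.8, 37.5 and 47 CPM in the knockdown and 64.2, 84.5 and 102 in the control (log2 -1.08 ± 0.14 SE, adjusted p = 0.0111). Rasa1, a GTPase-activating protein for Ras, was at 59.1, 30.8 and 37.4 CPM in the knockdown and 88.5, 75 and 82.9 in the control (log2 -0.97 ± 0.17 SE, adjusted p = 0.0277). For Trak2 and Rasa1 all knockdown libraries lay below all controls, while the Mycl groups overlapped across days and differed within each day. Further holders that fell were the acid ceramidase Asah1 (log2 -0.91 ± 0.11), the chromatin protein Msl3 (-0.89 ± 0.13), the shedding protease Adam10 (-0.80 ± 0.10), the signal recognition particle subunit Srp14 (-0.81 ± 0.12), the Golgi tethering protein Cog4 (-0.86 ± 0.11) and the heparan sulfate polymerase Ext1 (-0.70 ± 0.10). Adjusted p over these 6 ran from 0.00958 to 0.0163. The other holders called lower ranged down to H3f3b, a gene for histone H3.3 (log2 -0.50 ± 0.10, adjusted p = 0.048). Serf2 (log2 -1.15 ± 0.20) and Capza1 (-0.56 ± 0.11) share 69.3% and 70.2% of their sequence, read in words of 31 bases, with other loci, so their reads are uncertain.

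Lower genes without the word included enzymes of redox and steroid metabolism and secreted proteins. Akr1c14 was at 2.6, 2.99 and 7.14 normalised CPM at days 0, 3 and 5 in the knockdown, against 5.06, 12.5 and 31.6 in the control. Akr1c14, a hydroxysteroid dehydrogenase, fell (log2 -1.85 ± 0.25 SE, adjusted p = 0.0115), with a smaller difference at day 0 than later, by values with no test of that change. Its UTR holds 6 bases of the word. Msrb3 was at 46.5, 47.5 and 50.6 normalised CPM at days 0, 3 and 5 in the knockdown, against 76.6, 128 and 114 in the control. The methionine sulfoxide reductase Msrb3 fell (log2 -1.12 ± 0.13 SE, adjusted p = 0.00741), and the groups did not overlap. Igf1 was at 0.799, 8.1 and 15.1 normalised CPM at days 0, 3 and 5 in the knockdown, against 2.42, 21.7 and 32.1 in the control. Igf1, a growth factor for muscle, was lower within each day (log2 -1.27 ± 0.19 SE, adjusted p = 0.0175), on 4 against 11 reads at day 0. Aspn was at 4, 22 and 20.4 normalised CPM at days 0, 3 and 5 in the knockdown, against 13.9, 52.6 and 46 in the control. Asporin, a small leucine-rich matrix protein, was lower on each day (log2 -1.34 ± 0.21 SE, adjusted p = 0.0196).

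The extracellular superoxide dismutase Sod3, which does hold the word, was at 7.99, 4.58 and 6.93 CPM in the knockdown and 24.6, 10.4 and 33 in the control (log2 -1.73 ± 0.23 SE, adjusted p = 0.0111). The alcohol dehydrogenase Adh1 was below the floor of 3 counts at day 0 in both libraries and at 4.93 and 11.6 CPM against 14.2 and 26.5 later (log2 -1.37 ± 0.26, adjusted p = 0.0387). Glutathione transferase Mgst1 (log2 -1.15 ± 0.19), carbonyl reductase Cbr2 (-0.60 ± 0.12), lipoprotein lipase Lpl (-1.08 ± 0.19), the insulin-like growth factor binding protein Igfbp7 (-1.05 ± 0.19) and the angiopoietin Angpt4 (-1.01 ± 0.14) fell as well. Angpt4 was among the 8 steadiest decreases, with log2 ratios of -1.02, -0.95 and -0.99. So were Rpl22l1, a paralogue of ribosomal protein Rpl22 (log2 -0.75 ± 0.09), Lage3 (-0.54 ± 0.11) and 1110012L19Rik (-0.62 ± 0.13), and 4 holders of the word, Ext1, Tcea1, Gas2 (-0.78 ± 0.12) and Tfdp2 (-0.64 ± 0.12), which encodes a partner of E2F factors. Among the 16 largest decreases were also the protease inhibitor Ctla2a (log2 -1.42 ± 0.28), Gm12248 (-1.79 ± 0.28) and the mitochondrial transfer RNA mt-Tc (-1.36 ± 0.21).

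**Figure D3:**
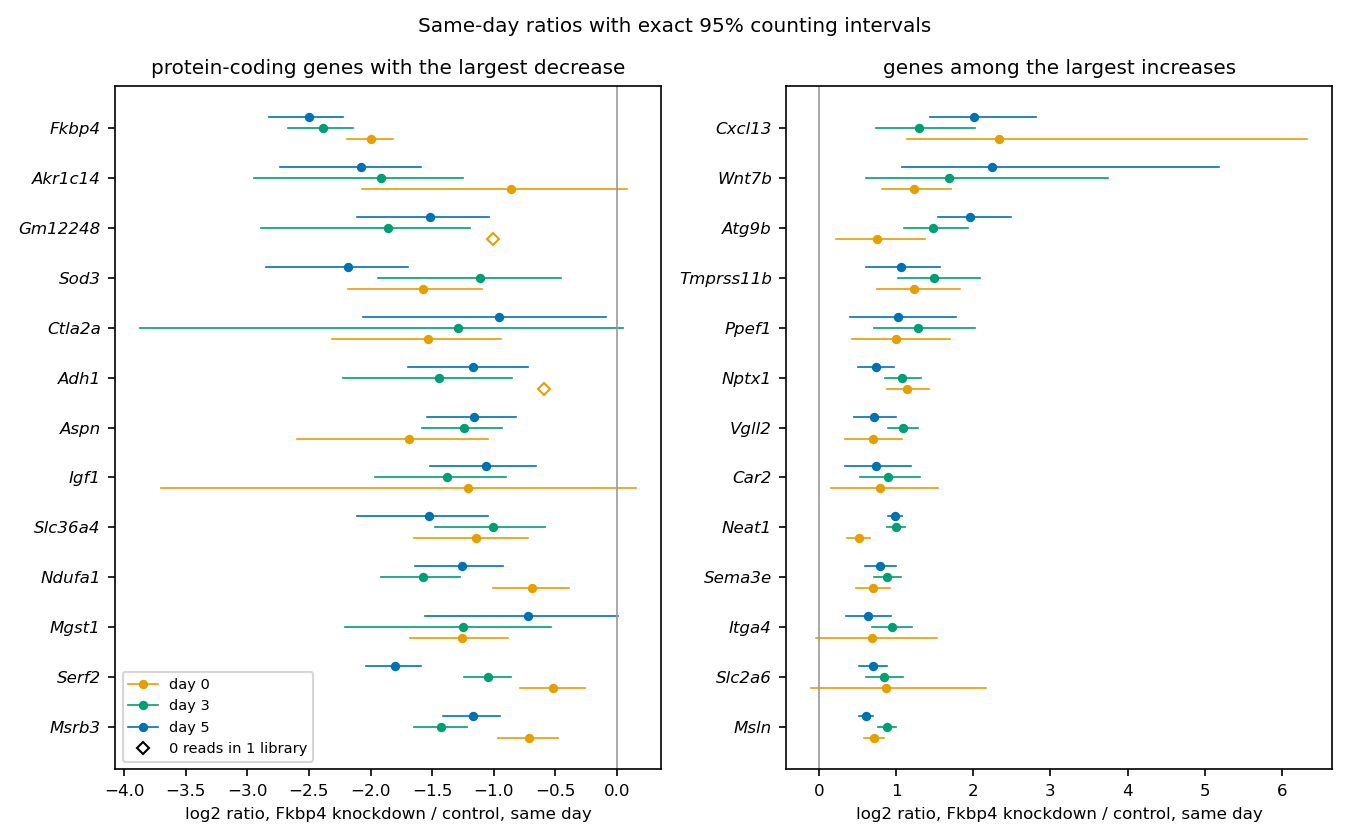
Same-day log2 ratios of the Fkbp4 knockdown to the control (x axis) for the protein-coding genes with the largest called decreases (left) and for genes among the largest called increases (right), 1 point per day with exact 95% counting intervals (lines). Open diamonds stand for a library with 0 reads, where no interval is drawn. Every point lies on 1 side of 0 for its panel because only genes with 1 sign on all days were drawn.

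Of the genes called, 31 rose on all days. Cxcl13 was at 4, 16.9 and 23.7 normalised CPM at days 0, 3 and 5 in the knockdown, against 0.44, 6.61 and 5.54 in the control. This chemokine for B lymphocytes was higher within each day (log2 1.85 ± 0.29 SE, adjusted p = 0.0196), on 20 against 2 reads at day 0. Wnt7b was at 31.6, 4.75 and 5.04 normalised CPM at days 0, 3 and 5 in the knockdown, against 13.2, 1.18 and 0.723 in the control. The ligand Wnt7b kept a higher level at each day, but on 5 and 3 control reads at days 3 and 5 (log2 1.67 ± 0.30 SE, adjusted p = 0.0308). Nptx1 was at 75.3, 100.3 and 94.7 normalised CPM at days 0, 3 and 5 in the knockdown, against 33.9, 47.2 and 56.7 in the control. The neuronal pentraxin Nptx1 had no overlap between the groups (log2 0.98 ± 0.12 SE, adjusted p = 0.00741) and remained called in 7 of 9 fits without 1 library, missing without the control or the knockdown library of day 3. Vgll2 was at 35.6, 149.8 and 71 normalised CPM at days 0, 3 and 5 in the knockdown, against 21.8, 70.3 and 42.9 in the control. Vgll2, a cofactor of TEAD factors in muscle, was higher within each day (log2 0.86 ± 0.14 SE, adjusted p = 0.0231).

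Atg9b, a lipid scramblase of autophagosome formation, was at 15.6, 41.5 and 45.4 CPM in the knockdown and 9.02, 14.6 and 11.3 in the control (log2 1.47 ± 0.24 SE, adjusted p = 0.0239). The protease Tmprss11b (log2 1.30 ± 0.20) and the phosphatase Ppef1 (1.16 ± 0.18) were the 2 protein-coding genes at least 2-fold higher on all 3 days. They were among 8555 with at least 50 reads in the larger library of each day. Those at least 2-fold lower on all days were Fkbp4, Aspn, Slc36a4 and Hmgn2, named because this count was small. Hmgn2 had 29 reads in each knockdown library against 181, 214 and 61, did not pass (log2 -2.63 ± 0.63, adjusted p = 0.0767) and shares 29.8% of its words with other genes. Further genes that rose were carbonic anhydrase Car2 (log2 0.84 ± 0.16), the guidance cue Sema3e (0.80 ± 0.13), integrin Itga4 (0.78 ± 0.14), the sugar transporter Slc2a6 (0.78 ± 0.16), mesothelin Msln (0.74 ± 0.14) and the antisense gene Gm13398 (1.38 ± 0.28), whose reads cannot be told from those of an overlapping gene without strand. Neat1, the RNA that scaffolds paraspeckles, was at 190.0, 407 and 719 CPM in the knockdown and 133, 204 and 363 in the control (log2 0.84 ± 0.16 SE, adjusted p = 0.0361). The smaller, steady increases were in N-cadherin Cdh2 (log2 0.49 ± 0.09), the endocytic Ehd4 (0.50 ± 0.09), the splicing regulator Celf1 (0.52 ± 0.10), the kinase Taok3 (0.55 ± 0.11) and the caveolar Cavin2 (0.64 ± 0.12).

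Genes close to the known function of Fkbp4 are given first by family, where 1.08% of all genes tested were called. Of 14 FK506-binding proteins measured, 1 was called, Fkbp4 itself, and 9 were lower and 1 higher on all days (median log2 -0.20). The endoplasmic reticulum members Fkbp11 (log2 -0.52 ± 0.12, adjusted p = 0.0775), Fkbp7 (-0.45 ± 0.12, 0.113) and Fkbp9 (-0.37 ± 0.09, 0.0845) did not pass. Of 17 cyclophilins, the other immunophilin family, Ppic fell (log2 -0.65 ± 0.12, adjusted p = 0.0399). Of 44 genes of the Hsp90 machinery 17 were higher and 8 lower on all days (median 0.03), and 1 was called. That gene was Bag3, a co-chaperone of Hsp70 that holds the word, at 37.2, 65.8 and 65.1 CPM in the knockdown and 62.7, 94.8 and 100.3 in the control (log2 -0.63 ± 0.10 SE, adjusted p = 0.0195). Hsp90aa1 (log2 0.34 ± 0.10, adjusted p = 0.142) and Hsp90ab1 (0.13 ± 0.10, 0.576) did not pass, and Hsp90aa1 passed by DESeq2 (adjusted p = 0.0404).

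No gene was called among 12 steroid receptors and co-regulators or 25 glucocorticoid receptor targets, where 2 and 7 had an unadjusted p under 0.05 (edgeR). Among all 10864 genes 1924 did. The target list had a median of -0.04, with 6 genes higher and 3 lower on all days. The glucocorticoid receptor Nr3c1 was at 62.5, 54.9 and 70.1 CPM in the knockdown and 61.4, 60.2 and 75.5 in the control (log2 -0.07 ± 0.11). Nr3c1 did not pass (adjusted p = 0.795), and its groups overlapped. The targets with the smallest p were Glul, glutamine synthetase (log2 0.49 ± 0.11, adjusted p = 0.0706), Sgk1 (-0.48 ± 0.12, 0.0978) and Pik3r1 (-0.56 ± 0.17, 0.16). Hsd11b1, which regenerates active glucocorticoid, was at 0, 1.76 and 8.82 CPM in the knockdown and 0.44, 7.79 and 20.5 in the control and did not pass (log2 -1.56 ± 0.35, adjusted p = 0.0639). Of 40 dynein, dynactin and tubulin genes the light intermediate chain Dync1li1, which holds the word, fell (log2 -0.73 ± 0.11, adjusted p = 0.019), and 9 were higher and 11 lower on all days.

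Muscle genes mostly had higher values in the knockdown. Markers of C2C12 identity were present, with 9 of 9 at a mean of 5 CPM or more and 0 of 9 called. Of 54 sarcomere genes 23 were higher (42.6%) and 2 lower on all days, against 24.1% and 22.1% of all genes, and 0 were called. An unadjusted p under 0.05 (edgeR) was reached by 10 of the 54, against 1924 of all 10864 genes. The sarcomere median was 0.22, with 0.56, 0.09 and 0.16 at days 0, 3 and 5. It was 0.124 without the day 0 knockdown library and 0.132 without the day 0 control. Embryonic myosin Myh3 was at 45.5, 1742 and 3807 CPM in the knockdown and 13.6, 1376 and 3255 in the control. Its log2 ratio was 1.71 (95% interval 1.33 to 2.17) at day 0 and 0.34 and 0.23 at days 3 and 5 (fit 0.69 ± 0.24, adjusted p = 0.2). Cardiac actin Actc1 was at 22.4, 1244 and 1169 CPM in the knockdown and 7.04, 930.4 and 606 in the control (log2 0.86 ± 0.20, adjusted p = 0.0699). Myogenin (Myog), the factor that drives terminal differentiation, had a higher value at day 0 and lower values at days 3 and 5, with 31.4, 322 and 247 CPM in the knockdown and 14.7, 356 and 278 in the control (0.14 ± 0.25, adjusted p = 0.814). The change of the effect from day 0 to the later days did not pass for Myh3, Actc1 or Myog by edgeR (adjusted p = 0.396, 1 and 1). DESeq2 called that change for 13 genes, Myh3 and the muscle genes Acta1, Mylpf, Tnnc1, Tnni1, Casq2, Mybph and Srl among them, so the call for Myh3 differs between the tools.

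Myod1, which sets myoblast identity, was at 74.9, 121 and 98.7 CPM in the knockdown and 69.3, 121 and 107 in the control (adjusted p = 0.994), with overlapping groups. Of 24 myogenic transcription factors 10 were higher and 0 lower on all days (median 0.12) and 0 were called, against 1.08% of all genes tested. The medians at days 0, 3 and 5 were 0.27, 0.02 and 0.01, and the fitted median was 0.037 without the day 0 knockdown library. Mef2a was at log2 0.41 ± 0.09 (adjusted p = 0.0623). Of 35 genes of excitation-contraction coupling and the endplate 18 were higher and 1 lower on all days. Here 2 rose, among them the acetylcholine receptor subunit Chrnd, which was at 96.3, 255 and 372 CPM in the knockdown and 56.1, 172 and 275 in the control (log2 0.59 ± 0.12 SE, adjusted p = 0.0484). Of 35 fusion and adhesion genes Cdh2 and Itga4 rose and the tetraspanin Cd9 fell (log2 -0.56 ± 0.10, adjusted p = 0.0264). The fusion protein gene Mymk did not pass, at 34, 758 and 1020.0 CPM in the knockdown and 13.2, 627 and 751 in the control (log2 0.61 ± 0.18, adjusted p = 0.145). Of 24 genes of muscle energy metabolism Lpl fell, and myoglobin Mb was at 2.6, 26.1 and 75.6 CPM in the knockdown and 1.1, 70.3 and 198 in the control without passing (log2 -1.28 ± 0.29, adjusted p = 0.0703).

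Cell cycle genes showed no shared direction over the days. Of all genes tested 1.08% were called, and 1924 of 10864 at a mean of 5 CPM or more had an unadjusted p under 0.05 (edgeR). Mitotic genes (57 measured) had medians of 0.11, -0.15 and 0.51 at days 0, 3 and 5, and 0 were called or reached an unadjusted p under 0.05 (edgeR). DNA replication genes (49) had medians of 0.09, -0.18 and 0.30, and Rpa3, the small subunit of replication protein A, fell (log2 -0.76 ± 0.15, adjusted p = 0.045). The order of the days was the same in both lists, with the lowest median at day 3 and the highest at day 5. Of 31 regulators of G1 and S phase E2f2 rose and Tfdp2 fell. E2f2 was at 41.2, 119 and 90.1 CPM in the knockdown and 30.4, 77.8 and 51.6 in the control (log2 0.63 ± 0.12 SE, adjusted p = 0.0362). Cyclin D1 gene Ccnd1 was at 345, 94.9 and 81.3 CPM in the knockdown and 254, 63.9 and 46.8 in the control and did not pass (log2 0.58 ± 0.13, adjusted p = 0.0606). Cdk4, the kinase that D-type cyclins activate, was at 682, 341 and 239.6 CPM in the knockdown and 658, 377 and 249 in the control (log2 -0.05 ± 0.12, adjusted p = 0.868), and the groups overlapped. Fosl1, an AP-1 factor, was the 1 immediate early gene of 28 that rose, at 126, 15.3 and 11.1 CPM in the knockdown and 80.8, 9.2 and 5.54 in the control (log2 0.74 ± 0.14, adjusted p = 0.0363), but shares 54.5% of its 31-base words, mostly with Ccdc85b.

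Short messages had lower ratios as a class. Of 81 ribosomal protein genes 55 were lower (67.9%) and 0 higher on all days (median -0.24), against 22.1% lower among all genes. Rpl22l1 was the 1 called, at 178, 114 and 103 CPM in the knockdown and 291, 195 and 178 in the control, where 1.08% of all genes tested were called. An unadjusted p under 0.05 (edgeR) was reached by 33 of the 81, against 1924 of all 10864 genes. Of 79 nuclear genes of oxidative phosphorylation 49 were lower (62%) and 7 higher on all days (median -0.20), with Ndufa1 and the ATP synthase subunit Atp5l called (log2 -0.72 ± 0.13, adjusted p = 0.0337). Without the day 0 knockdown library the ribosomal median was -0.148, and without the day 3 control the oxidative phosphorylation median was -0.127. Ribosomal Rps15a (log2 -0.55 ± 0.11, adjusted p = 0.0509) and Rps27 (-0.60 ± 0.13, 0.0562) did not pass. These lists have median exon lengths of 1770 and 1756 bases, against 4712 over protein-coding genes, and the difference moved with length. Protein-coding genes of up to 1000 exon bases (169) had a median of -0.27, those of 1000 to 2000 bases (948) -0.13, and those over 8000 bases (2051) 0.07. The first group was at -0.253, -0.345 and -0.155 at days 0, 3 and 5, and in the Fkbp5 knockdown at 0.06. Among genes of up to 2000 bases the 93 ribosomal and oxidative phosphorylation genes had a median of -0.25 and were lower on all days in 69.9%, and the other 1024 genes had -0.14 and 40.5%. Length and function were not separated further. Of 11 mitochondrially encoded mRNAs 6 were lower and 0 higher on all days (median -0.27, or -0.157 without the day 3 control), where mitochondrial genes held 1.78, 3.11 and 5.01% of reads in the knockdown and 1.8, 4.75 and 4.01% in the control. At day 5 mt-Co2, mt-Atp8 and mt-Atp6 went the other way, at log2 7.07, 7.21 and 5.94. These rest on 21721, 3546 and 6326 knockdown reads against 139, 19 and 88. At days 0 and 3 the same genes were at -0.31 to 0.06.

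**Figure D4:**
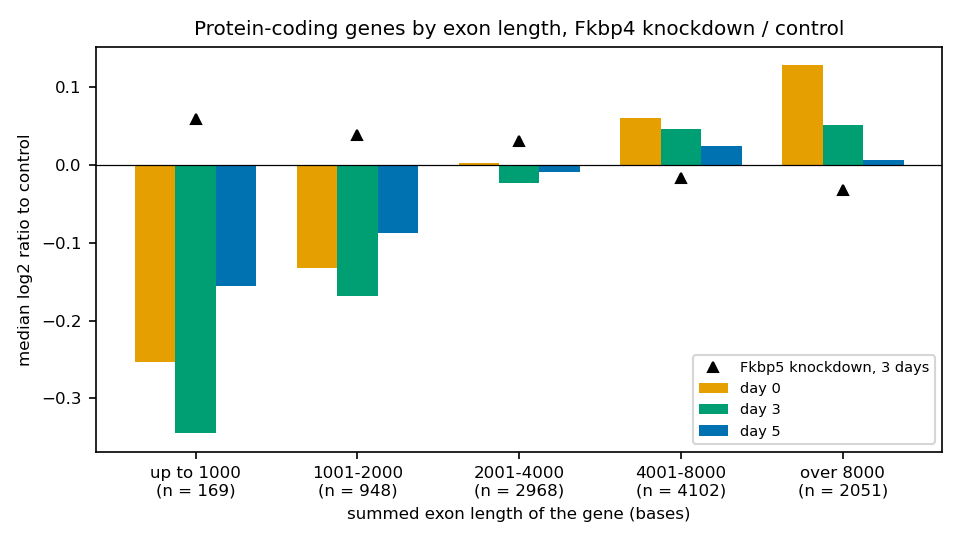
Median log2 ratio to the same-day control (y axis) of protein-coding genes in 5 classes of summed exon length (x axis, with the number of genes), 1 bar per day for the Fkbp4 knockdown and a triangle for the Fkbp5 knockdown fitted over 3 days. In the Fkbp4 knockdown the shortest class is the lowest on each day, at -0.253, -0.345 and -0.155.

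Matrix genes mostly had lower values at days 3 and 5. Of 18 collagens 9 were lower and 1 higher on all days, with medians of -0.08, -0.27 and -0.34 at days 0, 3 and 5, and 0 were called. An unadjusted p under 0.05 (edgeR) was reached by 6 of the 18, against 1924 of all 10864 genes. Col8a1 was at 73.9, 58.6 and 108 CPM in the knockdown and 77.9, 115 and 293 in the control (log2 -0.84 ± 0.21, adjusted p = 0.0887). Of 40 small leucine-rich and matricellular genes 16 were lower and 5 higher on all days (medians -0.03, -0.30 and -0.34). Here 3 fell, Aspn, periostin Postn and Ccn3, where 1.08% of all genes tested were called. Postn was at 2.4, 14.1 and 52.7 CPM in the knockdown and 1.32, 33 and 120.1 in the control (log2 -1.07 ± 0.21 SE, adjusted p = 0.0399), so its sign at day 0 differed. Ccn3 was at 2.6, 45.2 and 41.6 CPM in the knockdown and 3.52, 75.2 and 68.2 in the control (log2 -0.70 ± 0.11 SE, adjusted p = 0.0196). Decorin Dcn was at 12.8, 296 and 341 CPM in the knockdown and 11.9, 524 and 621 in the control and did not pass (log2 -0.66 ± 0.18, adjusted p = 0.115). Markers of tendon and fibroblasts also had lower values. Of 12 on the list 6 reached 5 CPM, 4 of these were lower on all days and 0 were called. Their fitted log2 differences ran from -1.35 to -0.323 (median -0.546). An unadjusted p under 0.05 (edgeR) was reached by 5 of the 6, against 1924 of all 10864 genes. The summed level of the list was 284, 698 and 783 CPM in the knockdown and 386, 1030 and 928 in the control. Much of that sum was 1 gene, Ly6a, with a mean of 514 CPM over the 6 libraries. Tcf21 had 0 reads. The part of such cells was not tested, and in bulk RNA fewer cells of a type and less RNA per cell cannot be told apart. Of 10 immune and 8 endothelial markers 0 reached 5 CPM, and Adgre1, Cd3e, Cdh5 and Tie1 had 0 reads in all 6 libraries.

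The remaining lists are read against the 1.08% of all genes that were called. At an unadjusted p under 0.05 (edgeR) the background is 1924 of 10864 genes. Of 50 antioxidant and redox genes 21 were lower and 4 higher on all days (median -0.12, or -0.065 without the day 5 knockdown library), and Sod3 and Mgst1 fell. Of 36 genes of alcohol, retinoid and aldo-keto metabolism Akr1c14, Adh1 and Cbr2 fell. Of 37 genes of TGF-beta, BMP and activin signalling 16 were lower and 2 higher on all days and 0 were called, with the receptors Tgfbr3 (log2 -1.36 ± 0.30, adjusted p = 0.063) and Bmpr2 (-0.57 ± 0.12, 0.063) nearest. Among 33 genes listed as chemokines, cytokines and their receptors Cxcl13 rose and Ccl7 fell (log2 -0.88 ± 0.16, adjusted p = 0.0312). The list also holds Nptx1, which rose but is a pentraxin and none of these. Of 36 matrix proteases and inhibitors Ctla2a and Adam10 fell, of 17 genes of the insulin-like growth factor axis Igf1 and Igfbp7 fell, and of 11 polyadenylated histone genes H3f3b fell. Of 41 autophagy genes Atg9b rose, and of 22 Wnt ligands and modulators Wnt7b rose. Of 31 interferon response genes Ifi27 fell (log2 -0.66 ± 0.11, adjusted p = 0.0215). None of 35 p53 targets, 48 genes of the unfolded protein response and integrated stress response, 37 of sterol and fatty acid synthesis or 17 of the Notch pathway was called, where 8, 9, 3 and 3 had an unadjusted p under 0.05 (edgeR). Sterol genes had medians of -0.08, 0.36 and -0.13 at days 0, 3 and 5.

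**Figure D5:**
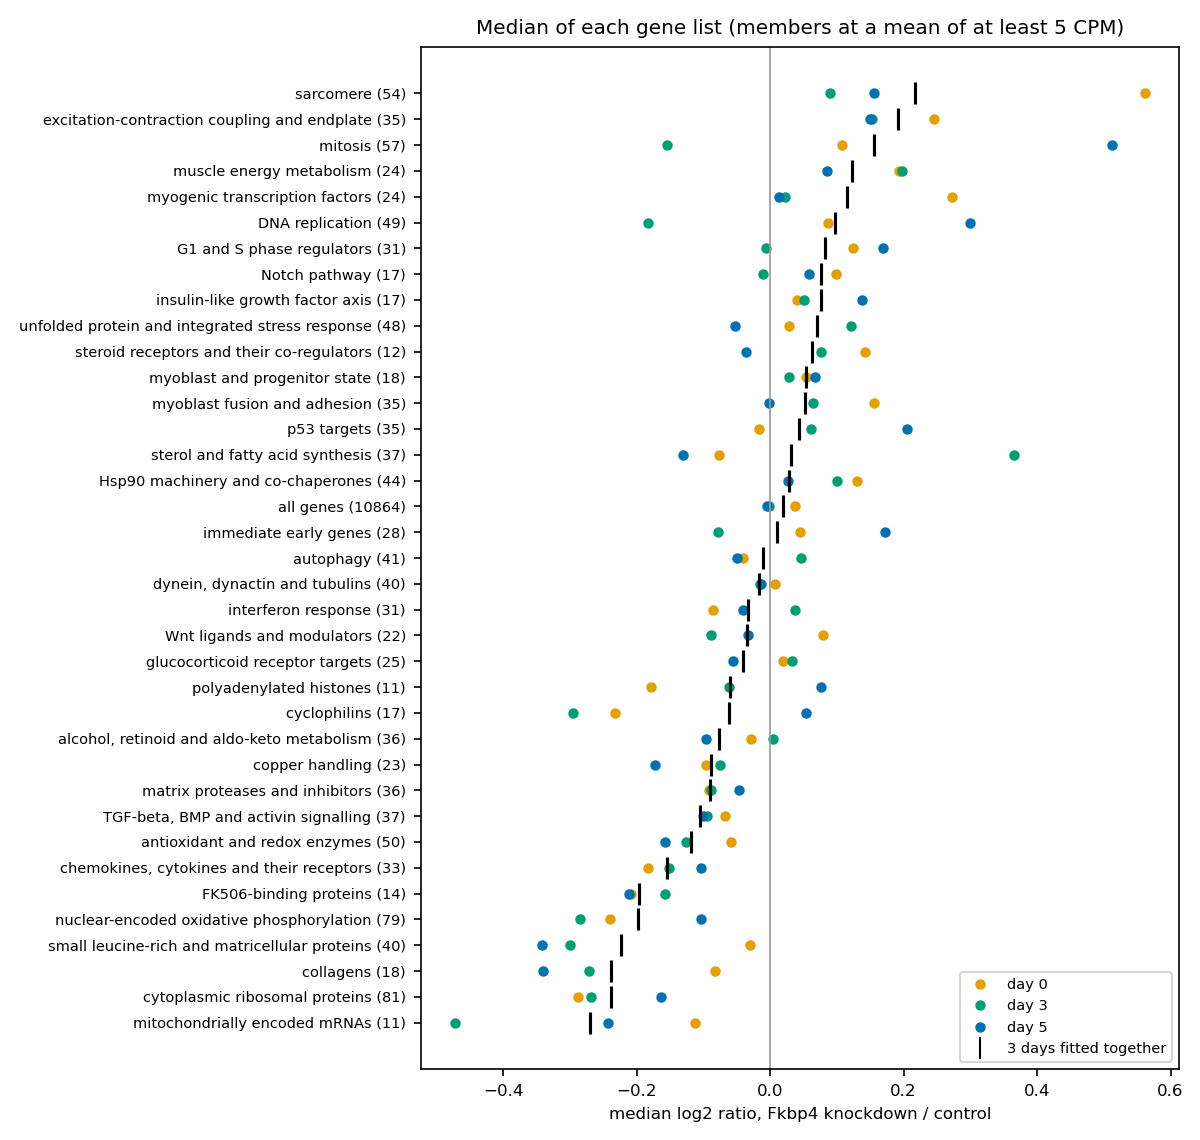
Median log2 ratio of the Fkbp4 knockdown to the control (x axis) over the members of each gene list at a mean of at least 5 CPM (y axis, number in parentheses), with 1 point per day and a bar for the 3 days fitted together. Ribosomal, oxidative phosphorylation and collagen medians are below 0 and sarcomere and coupling medians above 0 on each day, while mitosis ranges from -0.15 at day 3 to 0.51 at day 5.

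Single days were compared without a test. With at least 50 reads in the larger library, 59 genes were 2-fold or more higher at day 0 (0.615% of 9595) and 59 lower (0.615%). At day 3 there were 52 higher (0.534% of 9742) and 106 lower (1.09%), and at day 5 75 higher (0.786% of 9541) and 90 lower (0.943%). The 4 largest ratios in each direction on each day included pseudogenes and mitochondrial genes that share sequence with other loci. The pseudogene Gm15464 had 1316, 510 and 662 reads in the control and 0, 1 and 1 in the knockdown, with 68.6% of its words also found elsewhere. Gm15500, called at log2 -1.32 ± 0.25, shares 99.9% of its words with others, chiefly Rpl5. At day 5 mt-Co2 was listed at 4561 CPM in the knockdown and 33.5 in the control, where 100% of its words occur elsewhere. The change of the knockdown effect from day 0 to days 3 and 5 was called for 5 of 12498 genes (0.04%), all processed pseudogenes, with 386 at an unadjusted p under 0.05 (edgeR). DESeq2 called 13 genes, and 0 of the 5 were among them.

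The Fkbp5 knockdown shares the controls, so its values are given side by side and the 2 knockdowns were compared directly. Fkbp4 knockdown and Fkbp5 knockdown differed for 1671 of 12498 genes (13.4%). Leaving out 1 library took this to 968, 790 and 539 without the Fkbp4 knockdown of days 0, 3 and 5, and to 1112 and 487 without the Fkbp5 knockdown of days 0 and 5. This contrast reuses the Fkbp4 libraries that picked the called genes, of which 118 of 131 passed. Genes with opposite signs against the control were Wnt7b (log2 1.67 in the Fkbp4 and -1.38 in the Fkbp5 knockdown), Itga4 (0.78 and -1.01), E2f2 (0.63 and -0.90) and Chrnd (0.59 and -0.85). The direct difference passed for these 4, with adjusted p from 0.000176 to 0.000852. It did not pass for the kinase gene Nek9, at -0.56 in both (adjusted p = 0.998), for Serf2 (-1.15 and -0.84, 0.349), or for Neat1 (0.84 and 0.52, 0.201). In the direct contrast 27 of 54 sarcomere genes were higher and 0 lower in the Fkbp4 knockdown, and 0 of 81 ribosomal protein genes were higher and 26 lower. Against the control the sarcomere median was 0.22 in the Fkbp4 and -0.58 in the Fkbp5 knockdown. The ribosomal medians were -0.24 and 0.10. For the 571 holders of the word the medians against the control were -0.12 and -0.02. The word was picked on day 0 libraries that enter the first of these medians, so the pair is not an even comparison.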

How the data were processed

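The 6 libraries compared, and the 3 of the Fkbp5 knockdown fitted with them, are gene-level tables of RNA sequencing of polyA RNA made with the TruSeq RNA v2 kit, per the labels' protocols. The column of the day 5 control is headed Ned.d5 and was taken as that sample's own table, whose title reads Neg. The values deposited by the authors are whole-number read counts for Ensembl genes, with no normalisation. Per the submitters' processing notes, CASAVA 1.8, HISAT2 2.0.2, Subread and featureCounts 1.4.6 were used with mm10, while the annotation release, strand setting and treatment of reads with several alignments are not given in the sources used here. Of 47728 identifiers 47309 were matched to GENCODE mouse release 21 (GRCm38), and the 419 others held at most 0.0188% of a library's reads.

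Counts were fitted with edgeR 4.0.16 in R 4.3.3 over all 9 libraries (filterByExpr by genotype, TMM, quasi-likelihood, genotype and day as additive terms, 4 residual degrees of freedom and a common biological coefficient of variation of 0.125), with p values two-sided and adjusted by Benjamini and Hochberg over 12498 genes and called under 0.05. The interaction with the later days left 2 residual degrees of freedom. With 1 library per day, p-values measure the spread of the genotype difference between days. Levels are CPM on TMM-scaled totals, and same-day ratios use log2 CPM with a prior count of 2. Standard errors are the log2 fold change over the root of the test statistic. DESeq2 1.42.0 and limma 3.58.1 served as alternatives, beside other scalings and filters, each library and day left out, and, chosen after the data were seen, genes with the UTR word left out. The fit and the word ranking were tested on simulated data. UTR words were read in 1 protein-coding transcript per gene, and words were ranked by the rank sum of the same-day ratios of their holders. The kit does not mark strand, so a gene and an overlapping antisense gene cannot be told apart.

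The named genes were Fkbp4, Fkbp5, Cdk4, Myod1, Myog, Myh3, Nr3c1, Hsp90aa1 and Hsp90ab1, then, among called genes at a mean of 5 CPM with 1 sign on all 3 days, the 16 largest and 8 steadiest in each direction, called members of 43 lists with up to 3 others per list by smallest p, the 8 strongest changes over time and 4 single-day ratios in each direction. Genes of 43 lists, the comparison and the word scan were chosen with earlier results of these data known. Some genes that this rule names are not reported here. Holders of the word were named after their values were seen.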

Additional observations from a re-analysis of the deposited data

Results flagged for a closer look

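The effect of the Fkbp4 knockdown at days 3 and 5 minus that at day 0 passed the interaction test (edgeR) for 5 processed pseudogenes. The log2 differences were -7.35 for Gm5786 (adjusted p = 0.000443), 11.07 for Gm13622 (0.00789), 9.71 for Gm4342 (0.0167), 3.61 for Gm16570 (0.0167) and -1.79 for Gm10136 (0.0323). Gm5786 was at 71.1, 0.176 and 0.42 normalised CPM in the knockdown and 40.7, 23.8 and 35.9 in the control. Of their 31-base words 86.2% (Gm5786, mostly shared with Rps2), 33.5% (Gm13622, Rps27a), 55.8% (Gm4342, Rpl35), 53% (Gm16570, Gm5148) and 79.8% (Gm10136, Rpl26) occur in other genes. The part of reads that fit several genes was not tested. With protein-coding nuclear genes alone edgeR called 0, with 323 at an unadjusted p under 0.05, and DESeq2 called 0 of these 5.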

How the results depend on the processing

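The Fkbp4 knockdown differed from the control for 135 genes (32 higher, 103 lower). The count was 690 (216 and 474) with no filter on low counts, 222 (51 and 171) by DESeq2, 254 (60 and 194) over protein-coding nuclear genes and 376 (83 and 293) with only the 6 libraries compared. It was 86 (19 and 67) without day 0, 4 (1 and 3) without day 3 and 12 (4 and 8) without day 5. Without 1 library it ran from 4 to 259 (1 to 63 higher, 3 to 196 lower), with 4 lacking the control of day 3 and 259 lacking the Fkbp5 knockdown of day 3, which is in neither group compared. Other scalings, limma voom and a minimum of 5 CPM kept it within 1.5 times. Of 85 called genes named, all remained by limma voom, 79 by DESeq2 and 79 with upper quartile scaling.

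Replicate numbers are days, so the pairing comes from the design and day is a term of the fit. With no replicate block by day 0 genes were called (edgeR, 306 at an unadjusted p under 0.05), 0 higher and 0 lower, and Fkbp4 itself had log2 -2.23 with adjusted p = 0.881. Without genes holding the UTR word 58 were called (11 higher, 47 lower), and without genes holding 6 or more of its bases 35 (6 and 29), both chosen after the data were seen. Of 48 named genes lacking the word 27 then remained called.

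The change of the effect over time was called for 95 genes with no filter, 13 by DESeq2 (0 of the 5 among them), 2 by limma voom and 0 among protein-coding nuclear genes, against 5. The direct contrast of the knockdowns gave 1111 genes by DESeq2, 806 without day 0, 250 without day 5, 4 with no replicate block, 952 with 6 libraries and 487 to 2106 without 1 library, against 1671. At 1.5-fold, single days gave 222 higher and 246 lower at day 0, 257 and 443 at day 3, and 329 and 394 at day 5.

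Of the 85 called genes named, 0 changed sign in any fit run. Cdk4, Myod1, Myog and Nr3c1, which did not pass, had either sign across fits. Hsp90aa1 passed by DESeq2 and Myh3 without the filter on low counts. Over scalings and libraries left out the median of all genes ran from 0.013 to 0.027, that of ribosomal protein genes from -0.30 to -0.15 and that of sarcomere genes from 0.12 to 0.31, oxidative phosphorylation reached -0.13 without the day 3 control, and mitosis ran from -0.06 to 0.37. Depth limits genes with few reads, such as Wnt7b, Cxcl13, Igf1 and Adh1, whose lowest libraries held 0 to 4 reads.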
